A study of Mus musculus with 18 samples.

Results

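The genes described here are 40 mouse genes chosen by symbol: the transcription factor gene Myc, its partner Max, and 38 genes for RNA polymerase I, for nucleolar factors that process ribosomal RNA and for 1 tRNA methyltransferase. All 40 were among the 56413 genes of the deposited table, and all 40 were among the 14076 genes with enough counts to test. Their RNA was sequenced in bulk in 18 libraries of mouse basophils, which are IgE-bearing granulocytes. The cells were cultured from bone marrow with 0.3 ng/mL interleukin-3 for 7 days and then enriched for CD49b with magnetic beads. The cells carried IgE against the hapten TNP, added on day 6 at 1 µg/mL, and 50000 cells went into each sample.

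Both genotypes, WT and TTP-KO, received one of 3 treatments at 10 ng/mL of protein, with 3 libraries for each of the 6 groups. The treatments were plain ovalbumin (control OVA) for 2 h, which gives the bound IgE no antigen, and ovalbumin coupled to the hapten (TNP-OVA) for 2 h or for 4 h. TTP, tristetraprolin, is encoded by Zfp36 and promotes the decay of messenger RNAs with AU-rich elements. The study asked how its loss alters expression after stimulation. The labels give neither the strain nor the age of the mice, do not say which part of Zfp36 is altered, and do not tie libraries to separate mice or cultures, so that p-values reflect only how far these libraries differ, which could be technical. No control OVA sample was taken at 4 h, and 2 more hours in culture cannot be told apart from 2 more hours with antigen.

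Myc binds DNA as a dimer with Max and raises the transcription of genes for growth, many of them for making ribosomes. Ribosomes are assembled in the nucleolus: RNA polymerase I transcribes a long precursor RNA, small nucleolar ribonucleoproteins (snoRNPs) guide its chemical modification, and a large set of assembly factors cut and fold it into the small and the large subunit. In white blood cells, a rise of these genes is a familiar part of activation by growth factors or antigen.

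The dimer's preferred site is the E-box CACGTG, which reads the same on both strands. RefSeq promoter windows (build GRCm38.p6, from 250 bases before to 50 bases after the annotated start) were at hand for 34 of the 40 genes; there were none for Bop1, Fbl, Myc, Npm1, Rrp12 and Rrs1. The E-box was found in 9 of these 34 windows (26.5%), against 8.09% of all 27025 windows and 11.5% of the 9765 windows of tested genes. These 9 stretches are shown because they hold the letters that the Myc and Max dimer reads; capitals mark the E-box.
Nop2: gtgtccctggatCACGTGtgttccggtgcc
Utp4: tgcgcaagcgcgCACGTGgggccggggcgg
Ltv1: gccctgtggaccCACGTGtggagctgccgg
Utp20: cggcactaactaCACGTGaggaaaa
Mettl1: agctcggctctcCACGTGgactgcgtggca
Pes1: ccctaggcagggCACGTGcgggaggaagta
Tsr1: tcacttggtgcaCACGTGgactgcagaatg
Max: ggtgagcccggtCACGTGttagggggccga
Wdr43: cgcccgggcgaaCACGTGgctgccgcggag

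On the plus strand these stretches lie at chr6:125131811-125131840 (Nop2), chr8:106893643-106893672 (Utp4), chr10:127041950-127041979 (Mettl1), chr11:3963965-3963994 (Pes1), chr11:74898092-74898121 (Tsr1) and chr17:71616220-71616249 (Wdr43). On the minus strand they lie at chr10:13193092-13193121 (Ltv1), chr10:88826765-88826789 (Utp20) and chr12:76962234-76962263 (Max). The whole E-box lay after the annotated start in 7 of the 9 genes (77.8%), against 182 of the 1124 tested genes with an E-box (16.2%). It began 3 bases after the start in Pes1 and 38 bases after it in Utp20. The site began at position -60 in Nop2 and at position -3 in Max. A match is a description of the letters, not of binding.

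Library totals ran from 5516600 to 12733000 estimated counts, of which Rn18s-rs5, for a ribosomal RNA, held between 7.78% and 11.0%. All 12 basophil markers listed were present in every group. Reads of Zfp36 were found in all 18 libraries (from 219 to 572 CPM in those labelled TTP-KO), which checks nothing while the altered part of the gene is unknown. The 10 neutrophil markers summed to between 1913 and 2547 CPM in TTP-KO libraries under control OVA and 2 h, against 1241 to 1562 CPM in WT, and at 4 h to between 1873 and 2133 CPM against 1013 to 1115 CPM. The 6 B cell markers summed to between 23.5 and 33.4 CPM in TTP-KO libraries and between 53.0 and 69.0 CPM in WT. The 10 macrophage and monocyte markers summed to more in TTP-KO at each treatment, with no overlap: between 2058 and 2108 CPM against 1912 to 1996 CPM in WT under control OVA, 2186 to 2361 CPM against 1898 to 2018 CPM at 2 h, and 2166 to 2315 CPM against 1875 to 1922 CPM at 4 h. Of the 7 mast cell markers, which summed to between 119 and 137 CPM in TTP-KO and between 189 and 218 CPM in WT, Mrgprb1 was at 0 throughout. The part of these cells in the results was not tested. In bulk RNA, fewer cells of a kind and less RNA per cell cannot be told apart.

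Levels are given in CPM, the usual depth-scaled counts, here with TMM scaling (a trimmed mean of expression ratios). They are not divided by transcript length and are compared only within a gene. Differences are log2 fold changes with their standard error (SE) from edgeR's quasi-likelihood model. A gene is said to have risen or fallen where its p, adjusted by Benjamini-Hochberg over all 14076 tested genes, was under 0.05.

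Most of these genes were higher after 4 h of TNP-OVA than in the 2 h control, a difference that holds both the antigen and 2 more hours in culture. After 4 h of TNP-OVA, 31 of the 40 had risen and 1 had fallen in WT, where 19.6% of all tested genes rose and 18.4% fell. In TTP-KO libraries 32 had risen and none had fallen, where 18.3% of all tested genes rose and 16.7% fell. The median change over the 40 genes was 0.65 in WT and 0.62 in TTP-KO, against -0.01 and 0.01 over all tested genes. The summed level of the 40 genes was 1020 ± 33.2 CPM (SD, n = 3) in WT control, 1067 ± 6.51 CPM at 2 h and 1326 ± 22.8 CPM at 4 h. In TTP-KO it was 1013 ± 13.8, 1113 ± 35.7 and 1348 ± 7.51 CPM (SD, n = 3).

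After 2 h only 8 had risen in WT (Ddx21, Gar1, Mettl1, Myc, Nolc1, Nop58, Utp4 and Wdr74) and none had fallen; 17.8% of all tested genes rose and 17.3% fell, so that the 8 of 40 are near the background. With library totals alone in place of TMM, Myc was the 1 of the 40 that rose and 15 fell, since that scaling moves the median of all genes from -0.05 to -0.37; the WT calls of Ddx21 (0.22), Gar1 (0.17), Mettl1 (0.31), Nolc1 (0.05), Nop58 (0.09), Utp4 (0.13) and Wdr74 (0.10) were then lost. The members' median lay 0.14 above the median of all genes under either scaling. A change of scaling shifts every gene by about the same amount, so this gap could hardly change. It does not bear on the lost calls. In TTP-KO libraries 10 had risen and 1 had fallen at 2 h, where 17.8% of all tested genes rose and 16.6% fell, and with library totals alone 2 (Myc and Gar1) rose and 13 fell. The 2 h counts rest on few libraries: without WT 2 h replicate 1 the WT count of risen genes was 5, and without TTP-KO control replicate 2 the TTP-KO count was 6. At 4 h the counts under library totals alone were 28 risen and 2 fallen in WT, and 26 risen and 1 fallen in TTP-KO. Of the 32 calls at 4 h, 28 in each genotype passed the test without any 1 of the 18 libraries; the others were Gar1, Polr1a, Rrp9 and Utp15 in WT and Gar1, Mettl1, Nop10 and Pes1 in TTP-KO.

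Of the 31 genes that rose by 4 h in WT, 8 had already risen at 2 h and 23 had not passed the test there. Among those 23, 20 were also higher at 4 h than at 2 h. From 2 h to 4 h, 27 of the 40 rose and 1 fell in WT, where 15.2% of all tested genes rose and 15.9% fell. In TTP-KO 26 rose and 2 fell, where 14.6% and 16.2% did. Of the 28 calls in each, 19 in WT and 20 in TTP-KO passed the test without any 1 library. The medians were 0.55 and 0.49. Myc, Ddx21 and Gar1 rose by 2 h in WT, and their 4 h against 2 h difference did not pass the test. At 4 h all 3 WT libraries lay above all 3 controls for 32 of the 40 genes, as they did for 25.1% of all tested genes.

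**Figure D1:**
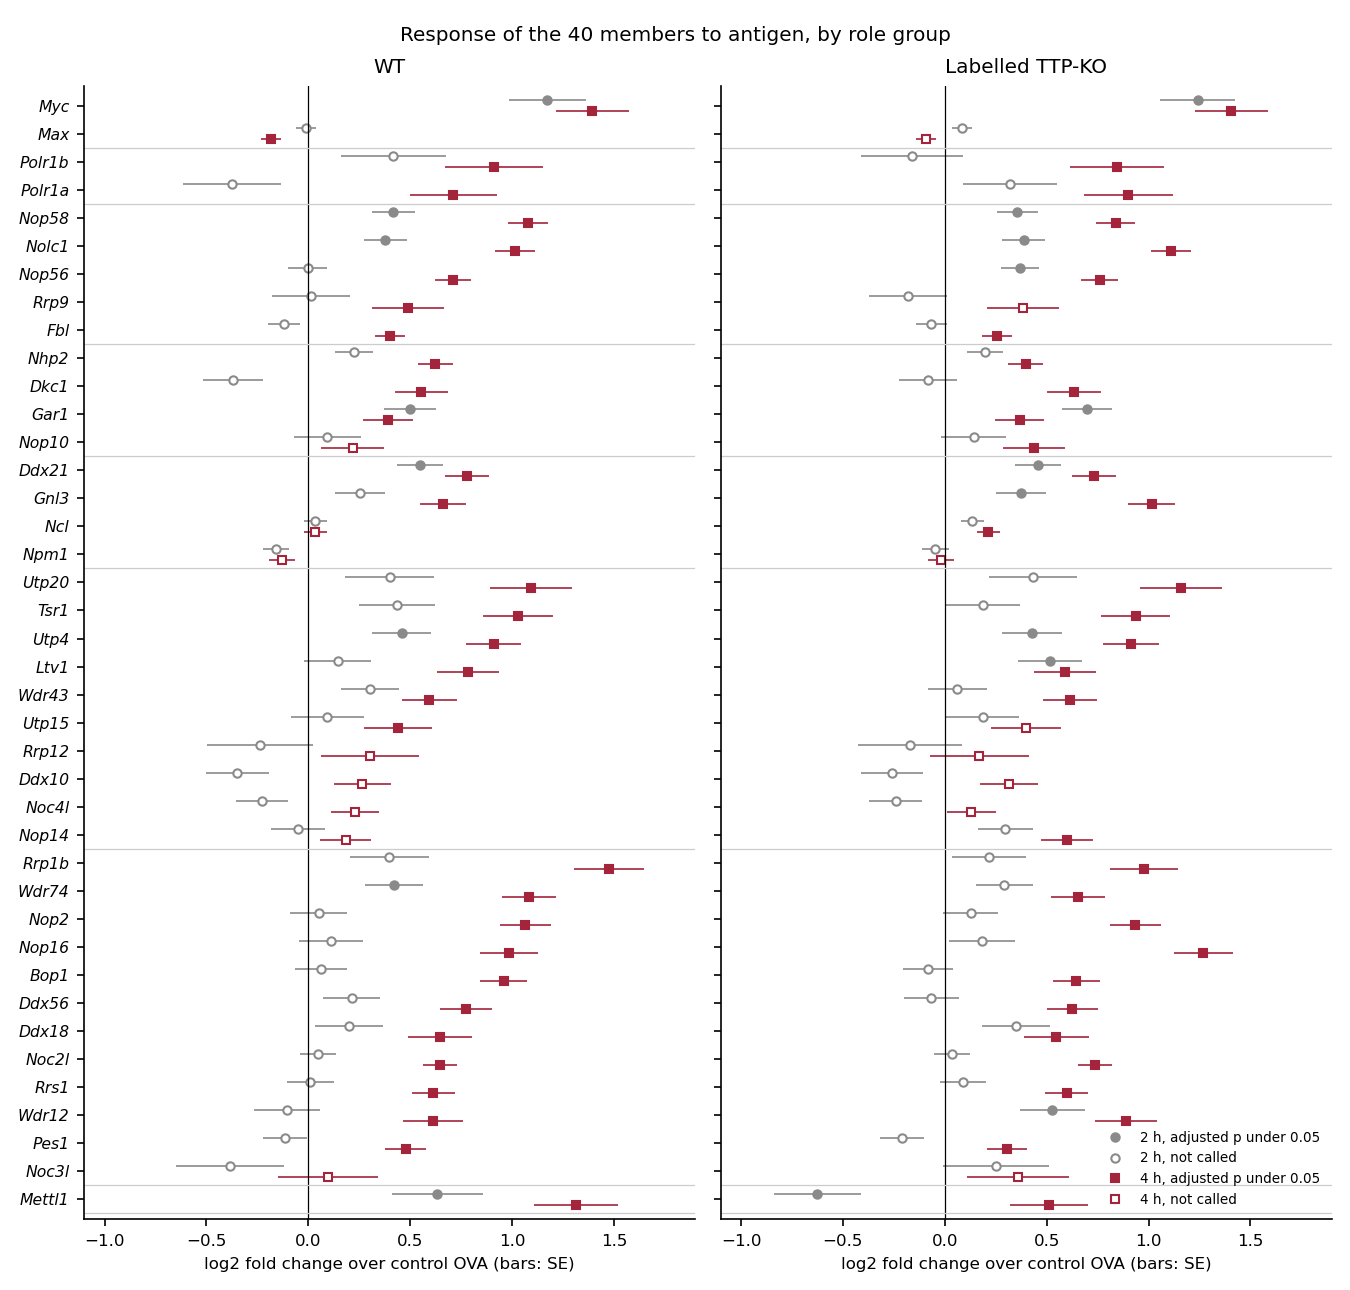
Log2 fold change over control OVA (x axis, bars are SE) of the 40 genes, in rows by role, for WT (left) and libraries labelled TTP-KO (right); circles are 2 h, squares 4 h, filled where the adjusted p was under 0.05. At 4 h, 31 squares of WT and 32 of TTP-KO are filled on the higher side, against 8 and 10 circles at 2 h.

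Myc (ENSMUSG00000022346) rose early and stayed high. Its level in the 3 WT control libraries was 10.8, 12.3 and 8.54 CPM. After 2 h of TNP-OVA the WT libraries gave 19.1, 23.4 and 27.1 CPM, and after 4 h 24.9, 28.1 and 28.6 CPM. Every stimulated library lay above every control library, in both genotypes. TTP-KO libraries gave 13.7, 7.62 and 10.7 CPM in control, 22.5, 27.8 and 24.3 CPM at 2 h, and 32.9, 23.1 and 27.2 CPM at 4 h. The rise in WT was 1.17 ± 0.19 (SE) at 2 h (edgeR adjusted p = 3.68e-05) and 1.39 ± 0.18 at 4 h (adjusted p = 2.15e-06). In TTP-KO it was 1.24 ± 0.18 and 1.41 ± 0.18. The 4 h libraries overlapped the 2 h libraries, and the difference of 0.22 ± 0.16 in WT did not pass the test (edgeR adjusted p = 0.338), but with library totals alone it was 0.42 (adjusted p = 0.0413). Between genotypes Myc differed by 0.03 ± 0.20 in control, 0.09 ± 0.17 at 2 h and 0.04 ± 0.16 at 4 h, and none of these passed the test.

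Max (ENSMUSG00000059436), the other partner of the dimer, did not rise with Myc. In WT it gave 153, 152 and 157 CPM in control and 149, 153 and 156 CPM at 2 h, which overlap. At 4 h it gave 134, 143 and 129 CPM, below every control and 2 h library, a fall of 0.18 on the log2 scale (SE 0.05, edgeR adjusted p = 0.00300; 0.0506 with no expression filter). Libraries labelled TTP-KO gave 133, 129 and 134 CPM in control, 142, 141 and 136 CPM at 2 h, and 123, 127 and 122 CPM at 4 h. Their 4 h change from control was -0.09 ± 0.05 and did not pass the test. With library totals alone it was -0.23 and passed as a fall (edgeR adjusted p = 0.000539). Under that scaling Max also passed as fallen at 2 h, by -0.34 in WT and -0.25 in TTP-KO. The change from 2 h to 4 h was -0.17 ± 0.05 in WT and -0.18 ± 0.05 in TTP-KO, both past the test, but with library totals alone they turned to 0.030 and 0.025. Both calls were lost with no expression filter, and that of WT without WT 4 h replicate 3 (edgeR adjusted p = 0.0559).

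Other genes of the network around Myc and Max moved in both directions. Of 14 other genes of the Myc network, 12 were tested. In WT 5 had risen and 4 had fallen at 2 h, and 5 and 4 at 4 h, of which 4 and 3 were the same genes. Of all tested genes, 17.8% rose and 17.3% fell at 2 h, and 19.6% and 18.4% at 4 h. Mxd1, whose product pairs with Max, had risen at 2 h and fallen at 4 h; Mlx rose at 4 h alone and Mxd3 fell at 2 h alone. Fbxw7, whose product marks Myc protein for degradation, rose by 1.36 ± 0.12 in WT at 2 h (edgeR adjusted p = 4.45e-10). Mycn, a close relative of Myc, rose by 0.99 ± 0.22 at 2 h. Mxi1, whose product competes with Myc for Max, changed by -1.35 ± 0.15 at 4 h. The same genes gave 1.51, 0.88 and -1.44 in TTP-KO in these comparisons, each past the test.

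The 2 genes for RNA polymerase I, Polr1a and Polr1b, encode the subunits that form its catalytic center. Both had risen at 4 h in both genotypes, and neither at 2 h. Polr1b gave 2.66, 3.65 and 3.10 CPM in WT control, 4.29, 4.56 and 3.64 CPM at 2 h, and 6.63, 5.76 and 5.19 CPM at 4 h. All 4 h libraries lay above all others of WT, and the rise over control was 0.91 ± 0.24 (edgeR adjusted p = 0.00325). In TTP-KO, Polr1b gave 4.53, 4.82 and 3.40 CPM in control, 2.71, 3.39 and 5.29 CPM at 2 h, and 7.59, 8.05 and 7.19 CPM at 4 h, a rise of 0.84 ± 0.23 by 4 h.

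Polr1a gave 6.59, 9.30 and 4.27 CPM in WT control, a wide spread, then 5.44, 4.84 and 4.85 CPM at 2 h and 10.2, 10.1 and 11.8 CPM at 4 h. Only the 4 h libraries stood apart from the control. The rise was 0.71 ± 0.21 over control (edgeR adjusted p = 0.00887) and 1.09 ± 0.22 over 2 h. Without WT control replicate 3 the rise over control was 0.45 and its call was lost (edgeR adjusted p = 0.109). The 2 h change of -0.37 did not pass the test, but passed as a fall without that library (-0.64, edgeR adjusted p = 0.0371). It also did with library totals alone (-0.70, edgeR adjusted p = 0.0147). In TTP-KO, Polr1a gave 4.09, 5.94 and 6.61 CPM in control, 7.84, 7.88 and 5.29 CPM at 2 h, and 10.9, 9.60 and 11.0 CPM at 4 h, with a rise of 0.90 ± 0.22 by 4 h. Of 13 other genes for this polymerase and its factors, 4 had risen and none had fallen at 4 h in each genotype. Of all tested genes, 19.6% rose and 18.4% fell in WT, and 18.3% and 16.7% in TTP-KO. Taf1a, part of the factor that recognises the ribosomal RNA promoter, rose by 1.54 ± 0.17 in WT already at 2 h. Rrn3, which recruits the polymerase to that promoter, rose by 0.87 ± 0.11 at 4 h, and Polr1e, a subunit, by 0.80 ± 0.25.

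The list for box C/D snoRNPs, many of which guide methylation of ribosomal RNA, held 5 genes: Nop58, Nop56, Fbl, Rrp9 and the assembly factor Nolc1. At 4 h all 5 had risen in WT and 4 in TTP-KO. Nop58, a scaffold protein of these particles, was among those that rose early. It gave 20.1, 17.3 and 17.9 CPM in WT control, 24.7, 26.1 and 23.3 CPM at 2 h, and 37.4, 40.4 and 39.6 CPM at 4 h. The 3 WT groups did not overlap. The rise was 0.42 ± 0.11 at 2 h (edgeR adjusted p = 0.00224) and 1.08 ± 0.10 at 4 h (adjusted p = 3.86e-10). TTP-KO libraries gave 23.7, 20.6 and 20.8 CPM, then 30.9, 26.3 and 25.7 CPM, then 41.8, 36.2 and 37.6 CPM, with rises of 0.36 ± 0.10 and 0.84 ± 0.10; the former missed the threshold without TTP-KO 2 h replicate 1 (0.27, edgeR adjusted p = 0.0691).

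Fbl, the methyltransferase of the same particles, was late. It gave 47.1, 44.3 and 41.7 CPM in WT control and 41.4, 39.4 and 41.7 CPM at 2 h, a difference of -0.12 ± 0.08 that did not pass the test. With library totals alone Fbl passed as fallen at 2 h (-0.45 in WT and -0.40 in TTP-KO). At 4 h it gave 57.4, 56.3 and 62.0 CPM, above every other WT library, a rise of 0.40 ± 0.07 (edgeR adjusted p = 6.65e-05). TTP-KO libraries gave 47.7, 45.7 and 47.9 CPM in control, 46.0, 46.4 and 42.3 CPM at 2 h, and 58.6, 52.4 and 57.3 CPM at 4 h, a rise of 0.25 ± 0.07, or 0.12 and not past the test with library totals alone. A processed copy, Fbl-ps2, has its own row in the table, and reads could be split between the 2. Nop56, the partner of Nop58, changed by 0.71 ± 0.09 in WT and 0.76 ± 0.09 in TTP-KO at 4 h. Nolc1 rose by 1.02 ± 0.10 and 1.11 ± 0.10. Rrp9 rose by 0.49 ± 0.18 in WT, and its 0.39 ± 0.18 in TTP-KO did not pass the test (edgeR adjusted p = 0.0937). The WT call was lost without WT control replicate 1 or WT 4 h replicate 1 (both 0.35), with DESeq2 (adjusted p = 0.0593) and with library totals alone, and without TTP-KO control replicate 3 the TTP-KO change was 0.69 and passed (edgeR adjusted p = 0.00426).

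The box H/ACA particles guide the conversion of uridine to pseudouridine. Of their 4 proteins, 3 had risen in WT at 4 h and all 4 in TTP-KO. Gar1 rose early: 22.5, 15.6 and 23.3 CPM in WT control became 25.9, 30.3 and 31.9 CPM at 2 h and 26.1, 29.9 and 25.8 CPM at 4 h. Both stimulated groups lay above the control and overlapped each other. The rise was 0.50 ± 0.13 at 2 h (edgeR adjusted p = 0.00237) and 0.39 ± 0.12 at 4 h. The 4 h call was lost without WT control replicate 2 (0.26, adjusted p = 0.101) or WT 4 h replicate 2 (0.30, adjusted p = 0.0976), and with library totals alone (0.27, adjusted p = 0.0868). In TTP-KO, Gar1 went from 23.4, 25.7 and 19.4 CPM to 37.5, 34.5 and 38.7 CPM at 2 h and back to 30.3, 27.0 and 30.5 CPM at 4 h. It was the 1 gene besides Max that fell from 2 h to 4 h there, by 0.33 on the log2 scale (SE 0.12, edgeR adjusted p = 0.0340). That call was lost in 5 of the fits without 1 library, those without TTP-KO 2 h replicate 1 or 3 or any 1 of the TTP-KO 4 h libraries (adjusted p from 0.0554 to 0.131). With library totals alone the change was -0.13 (adjusted p = 0.416). The TTP-KO rise at 4 h also missed the threshold under that scaling (0.23) and without TTP-KO control replicate 3 (0.25) or TTP-KO 4 h replicate 1 or 3.

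Dkc1, the pseudouridine synthase, followed another course. It gave 10.4, 13.8 and 13.3 CPM in WT control, 9.90, 9.95 and 9.03 CPM at 2 h, and 16.9, 18.5 and 19.5 CPM at 4 h. The 2 h libraries lay below the control, by -0.37 ± 0.15 (edgeR adjusted p = 0.0505; 0.0147 without WT control replicate 1), and the 4 h libraries above it, by 0.56 ± 0.13. In TTP-KO it gave 12.0, 13.2 and 11.1 CPM in control, 12.4, 11.9 and 9.80 CPM at 2 h, and 17.1, 20.6 and 18.9 CPM at 4 h, a rise of 0.64 ± 0.13. Nhp2 rose by 0.62 ± 0.09 and 0.40 ± 0.09 at 4 h. Nop10 rose by 0.44 ± 0.15 in TTP-KO, and its 0.22 ± 0.16 in WT did not pass the test. The TTP-KO call was lost without TTP-KO control replicate 1 or 3 or TTP-KO 4 h replicate 1 or 3 (edgeR adjusted p from 0.0820 to 0.112), and with library totals alone.

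Among 4 abundant nucleolar proteins, Ddx21 and Gnl3 had risen at 4 h in both genotypes. Ncl (nucleolin) and Npm1 (nucleophosmin) had not risen in WT. Ddx21, an RNA helicase, gave 24.4, 28.9 and 23.5 CPM in WT control, 37.0, 35.4 and 38.8 CPM at 2 h, and 41.1, 43.6 and 46.0 CPM at 4 h. It rose by 0.55 ± 0.11 at 2 h (edgeR adjusted p = 0.000313), with no overlap with the control, and by 0.78 ± 0.11 at 4 h. TTP-KO libraries gave 31.2, 30.0 and 22.7 CPM, then 44.7, 34.2 and 35.6 CPM, then 46.6, 46.7 and 45.4 CPM.

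Npm1, a chaperone of ribosomal proteins, gave 176, 179 and 153 CPM in WT control, 151, 156 and 147 CPM at 2 h, and 161, 149 and 153 CPM at 4 h. These groups overlap, and neither the 2 h (-0.16 ± 0.06) nor the 4 h difference (-0.13 ± 0.06) passed the test. Without WT control replicate 3 both did, at -0.23 and -0.20, as they did with library totals alone. TTP-KO libraries gave 172, 184 and 163 CPM in control, 177, 163 and 161 CPM at 2 h, and 163, 188 and 161 CPM at 4 h. Ncl changed by 0.03 ± 0.06 in WT at 4 h and rose by 0.21 ± 0.06 in TTP-KO (edgeR adjusted p = 0.00328), or by 0.08 and not past the test with library totals alone. Gnl3, a nucleolar GTPase, rose by 0.66 ± 0.11 in WT and 1.01 ± 0.12 in TTP-KO. The difference between genotypes in the 4 h response passed the test for none of the 40 genes.

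**Figure D2:**
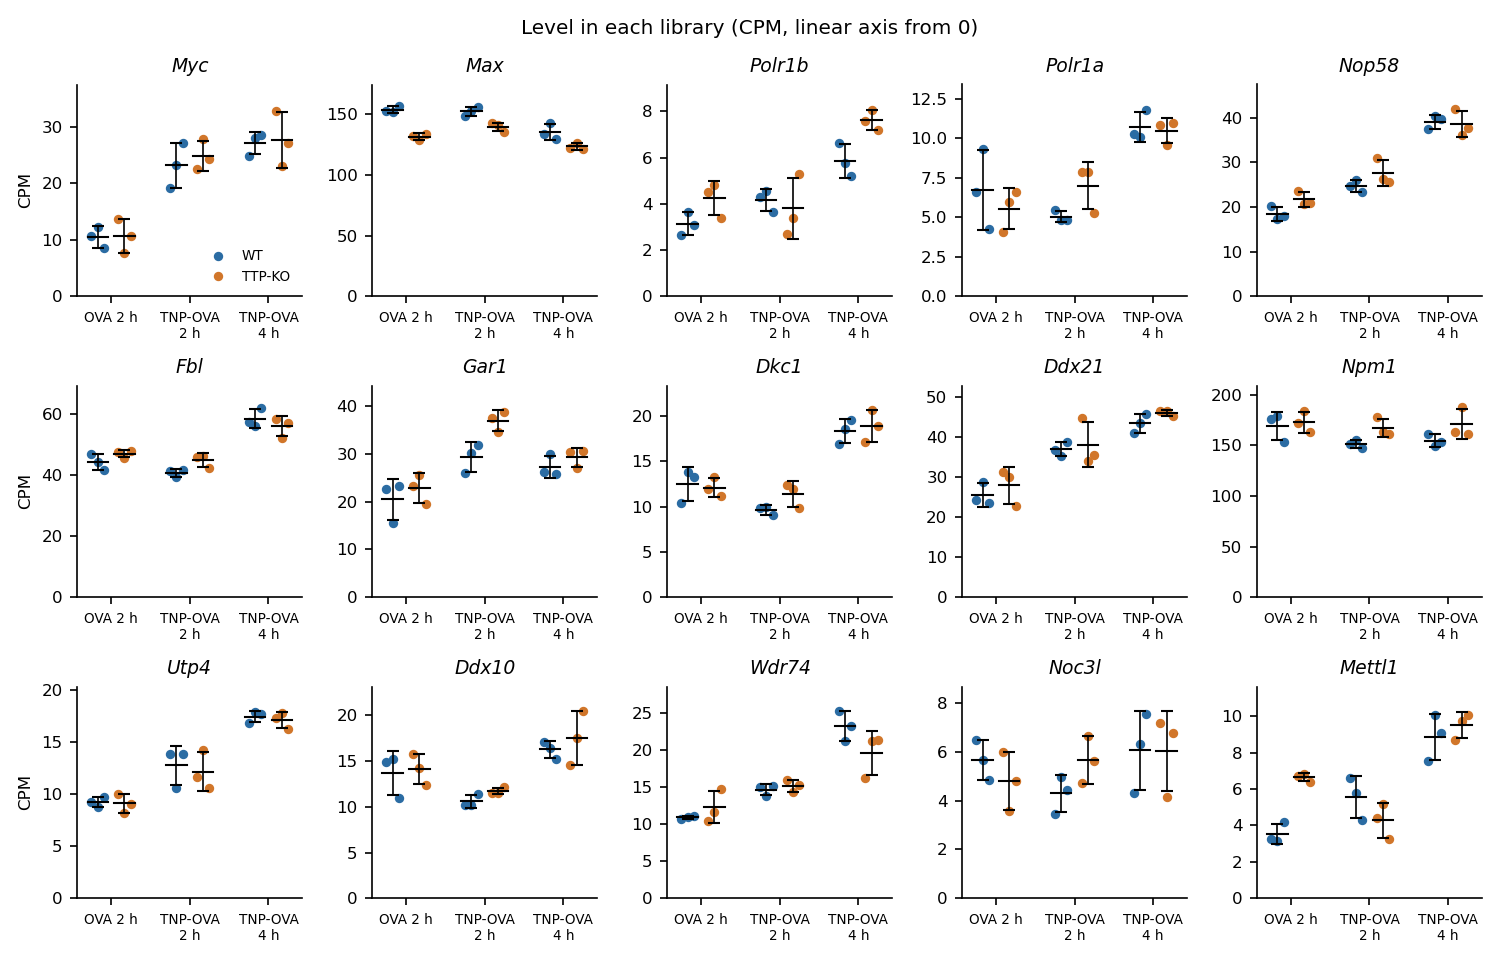
Level (CPM, y axis from 0) of 15 genes in each of the 18 libraries, by treatment (x axis) for WT and TTP-KO; points are libraries, lines the mean and bars the SD of 3 libraries. Myc, Gar1 and Ddx21 are high at 2 h, while Fbl and Dkc1 are high only at 4 h and Npm1 overlaps between the treatments.

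Of the 10 genes for assembly of the small subunit, 6 had risen at 4 h in each genotype. Utp4, part of a complex that binds the precursor RNA first, gave 9.25, 8.80 and 9.70 CPM in WT control, 13.9, 10.6 and 13.9 CPM at 2 h, and 16.9, 17.9 and 17.7 CPM at 4 h. The groups did not overlap, and the rise was 0.46 ± 0.15 at 2 h (edgeR adjusted p = 0.0142) and 0.91 ± 0.14 at 4 h. The 2 h call was lost without WT 2 h replicate 1 or 3 (adjusted p = 0.0549 and 0.0716 in edgeR). TTP-KO libraries gave 10.1, 8.18 and 9.11 CPM, then 11.7, 14.3 and 10.6 CPM, then 17.3, 17.8 and 16.3 CPM, with a 4 h rise of 0.92 ± 0.14.

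Ddx10, an RNA helicase, did not pass the test against control at either time. It gave 14.9, 15.3 and 11.0 CPM in WT control, 10.2, 10.2 and 11.5 CPM at 2 h, and 17.1, 16.5 and 15.3 CPM at 4 h. The 4 h libraries lay above every 2 h library, a rise of 0.61 ± 0.15 (edgeR adjusted p = 0.00195). TTP-KO libraries gave 15.8, 14.2 and 12.4 CPM, then 11.5, 11.5 and 12.1 CPM, then 14.6, 17.5 and 20.5 CPM, and the rise from 2 h to 4 h was 0.58 ± 0.15. Against control, Ddx10 passed the test as fallen at 2 h with library totals alone (-0.67 in WT and -0.60 in TTP-KO). It also did in WT without WT control replicate 3 (-0.50). Without TTP-KO 4 h replicate 1, its 4 h change in TTP-KO passed as a rise (0.44).

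The other 8 small-subunit genes ranged at 4 h in WT from Nop14, at 0.18 ± 0.13 and not past the test, to Utp20, at 1.09 ± 0.20. Tsr1 and Ltv1, which act late on the particle in the cytoplasm, rose by 1.03 ± 0.17 and 0.78 ± 0.15. Wdr43 rose by 0.59 ± 0.13 and Utp15, which sits in the same complex as Utp4, by 0.44 ± 0.17. The call of Utp15 was lost in 7 of the 18 fits without 1 library (0.31, edgeR adjusted p = 0.207 without WT 4 h replicate 3), with DESeq2 (adjusted p = 0.0774) and with library totals alone. Noc4l (0.23 ± 0.12) and Rrp12 (0.30 ± 0.24) did not pass the test, in WT or in TTP-KO. Nop14 rose by 0.60 ± 0.13 in TTP-KO, and the 0.40 ± 0.17 of Utp15 there did not pass the test, but it did without TTP-KO 4 h replicate 1 (0.50, edgeR adjusted p = 0.0486). Of 43 other small-subunit factors tested, 26 had risen at 4 h and none had fallen in WT, with 25 and none in TTP-KO. Of all tested genes, 19.6% rose and 18.4% fell in WT, and 18.3% and 16.7% in TTP-KO. The medians of the 43 factors were 0.45 and 0.42. The largest changes among them in WT were those of Bysl (1.40 ± 0.13), Wdr46 (1.11 ± 0.13) and Utp14a (1.01 ± 0.15).

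Among the genes for assembly of the large subunit, 11 of 12 had risen at 4 h in each genotype, while 1 of 12 had risen in each at 2 h. Wdr74, which acts in early processing of the large particle, was the 1 in WT. It gave 10.8, 11.0 and 11.2 CPM in control, 15.0, 13.8 and 15.2 CPM at 2 h, and 25.3, 21.3 and 23.3 CPM at 4 h, with no overlap between groups. The rise was 0.42 ± 0.14 at 2 h (edgeR adjusted p = 0.0228) and 1.08 ± 0.13 at 4 h. The 2 h call was lost without WT control replicate 1 or WT 2 h replicate 1 or 3 (adjusted p from 0.0513 to 0.0713 in edgeR). In TTP-KO, Wdr74 gave 10.5, 11.7 and 14.7 CPM, then 16.0, 14.4 and 15.2 CPM, then 16.2, 21.3 and 21.5 CPM, a rise of 0.65 ± 0.13 by 4 h. The 1 that rose at 2 h in TTP-KO was Wdr12, by 0.53 ± 0.16, a call lost without TTP-KO control replicate 2 or TTP-KO 2 h replicate 2 and with library totals alone (0.19).

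Noc3l was the 1 that did not pass the test at any time. With library totals alone it passed in WT as fallen at 2 h (-0.71) and as risen from 2 h to 4 h (0.68). It gave 6.48, 5.65 and 4.85 CPM in WT control, 3.46, 4.98 and 4.45 CPM at 2 h, and 4.33, 6.30 and 7.53 CPM at 4 h, and 5.99, 3.59 and 4.81 CPM, 4.70, 6.65 and 5.60 CPM, and 7.16, 4.15 and 6.78 CPM in TTP-KO. Its groups overlap, with estimated counts of only 21 to 83 a library. Noc2l, its partner, rose by 0.65 ± 0.08 in WT and 0.74 ± 0.08 in TTP-KO at 4 h.

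Pes1, Bop1 and Wdr12 form one complex, needed to process the large-subunit RNA. At 4 h in WT they had risen by 0.48 ± 0.10, 0.96 ± 0.11 and 0.61 ± 0.15, and in TTP-KO by 0.30 ± 0.10, 0.65 ± 0.11 and 0.89 ± 0.15. The TTP-KO call of Pes1 was lost without TTP-KO control replicate 2 or TTP-KO 4 h replicate 3 and with library totals alone (0.17). Rrp1b gave the largest change of all 40 genes in WT at 4 h, 1.48 ± 0.17 (edgeR adjusted p = 5.44e-08), with 0.98 ± 0.17 in TTP-KO. Nop2, a methyltransferase of ribosomal RNA, rose by 1.06 ± 0.13 and 0.94 ± 0.12, and Nop16 by 0.99 ± 0.14 and 1.27 ± 0.15. The helicases Ddx56 and Ddx18 rose by 0.77 ± 0.13 and 0.65 ± 0.16 in WT, and Rrs1 by 0.61 ± 0.11.

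Of 40 other large-subunit factors tested, 26 had risen and 2 had fallen at 4 h in WT, and 25 and 1 in TTP-KO. Their medians were 0.44 and 0.41. Nle1 (1.34 ± 0.23), Ppan (1.13 ± 0.12) and Rrp15 (1.03 ± 0.21) changed most among them in WT. At 2 h, 11 of these 40 had risen and 4 had fallen in WT. Of all tested genes in WT, 17.8% rose and 17.3% fell at 2 h, and 19.6% and 18.4% at 4 h. In TTP-KO 18.3% of all tested genes rose and 16.7% fell at 4 h.

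Mettl1 (ENSMUSG00000006732), which methylates guanosine in transfer RNAs, was the 1 gene that passed the test at 2 h in both genotypes with opposite signs. In all, 11 of the 40 had opposite signs at 2 h, but the other 10 did not pass in both genotypes. In WT it gave 3.24, 3.16 and 4.17 CPM in control, 6.60, 5.81 and 4.31 CPM at 2 h, and 7.51, 10.0 and 9.05 CPM at 4 h. Every stimulated library lay above every control. The rise was 0.63 ± 0.22 at 2 h (edgeR adjusted p = 0.0266) and 1.31 ± 0.21 at 4 h (adjusted p = 7.16e-06). In TTP-KO it gave 6.72, 6.84 and 6.41 CPM in control, 4.42, 5.16 and 3.27 CPM at 2 h, and 8.71, 9.73 and 10.1 CPM at 4 h.

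There the 2 h libraries lay below every control, a change of -0.63 ± 0.21 (edgeR adjusted p = 0.0227), and the 4 h libraries above, by 0.51 ± 0.19 (adjusted p = 0.0385). Under control OVA, Mettl1 was higher in TTP-KO than in WT by 0.90 ± 0.21 (edgeR adjusted p = 0.0233), with no overlap. The difference in the 2 h response between genotypes was -1.26 ± 0.31, but its edgeR adjusted p of 0.213 missed the threshold. These calls rest on 19 to 129 estimated counts a library and on single libraries: without WT 2 h replicate 1 the WT rise at 2 h was 0.51 (adjusted p = 0.118), and without TTP-KO 2 h replicate 3 the TTP-KO change was -0.48 (adjusted p = 0.119). The WT rise at 2 h also missed the threshold without WT control replicate 1 or 2 or without WT 2 h replicate 2, with DESeq2 (adjusted p = 0.0576), with no expression filter (adjusted p = 0.0858) and with library totals alone. The TTP-KO change at 2 h missed it without TTP-KO control replicate 2 (adjusted p = 0.0556) and with DESeq2 (adjusted p = 0.0688). The TTP-KO rise at 4 h missed it without any 1 of the 3 TTP-KO controls (adjusted p from 0.0737 to 0.105), without TTP-KO 4 h replicate 2 or 3 or WT 4 h replicate 2, with DESeq2 (adjusted p = 0.0852), with no expression filter (adjusted p = 0.0881) and with library totals alone (adjusted p = 0.130). The difference under control OVA missed it without WT control replicate 1 or 2, or without any 1 of the 3 TTP-KO controls (adjusted p from 0.0610 to 0.0978). All 3 of these calls, at 2 h in each genotype and under control OVA, were also lost in a fit of only the groups compared (adjusted p from 0.0560 to 0.0803).

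Of 19 other genes for tRNA modification and processing, 10 had risen at 4 h in WT and 9 in TTP-KO, and none had fallen. Of all tested genes, 19.6% rose and 18.4% fell in WT, and 18.3% and 16.7% in TTP-KO. Trmt61a, a tRNA methyltransferase subunit, changed by 1.88 ± 0.17, Rpp40, part of the RNase P family of enzymes, by 1.67 ± 0.52, and Pus7, a pseudouridine synthase, by 0.89 ± 0.20 in WT. In TTP-KO the 3 gave 1.22, 0.47 and 0.81, of which that of Rpp40 did not pass the test.

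**Figure D3:**
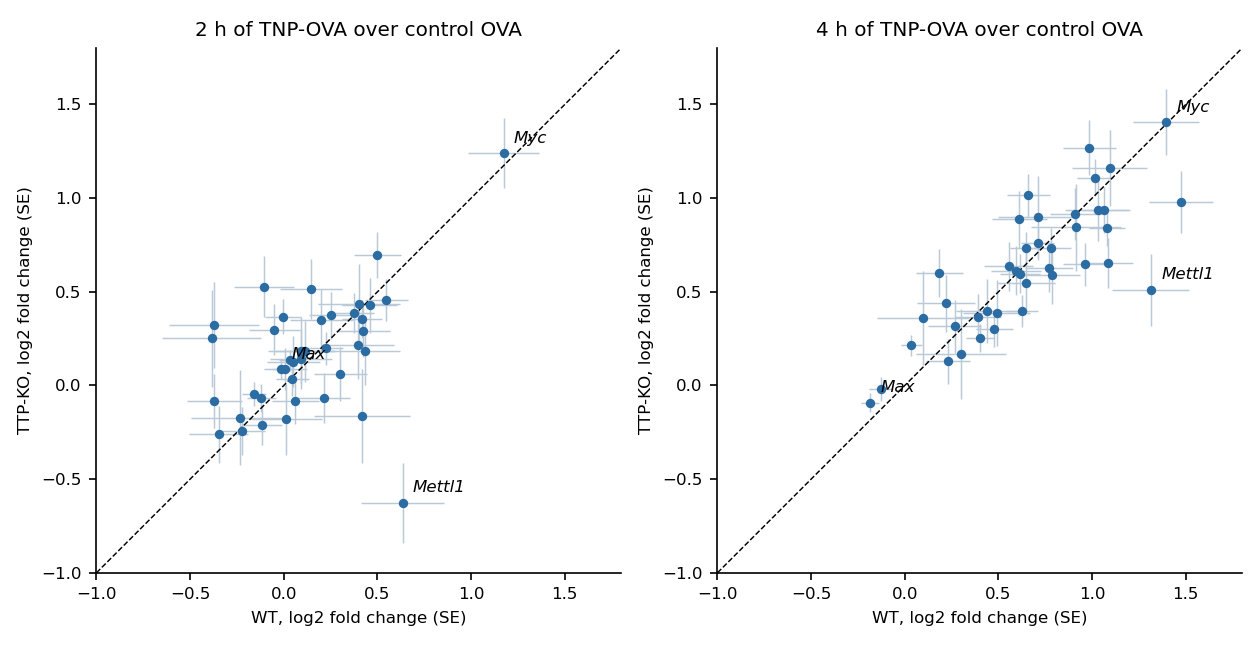
Log2 fold change over control OVA of the 40 genes in WT (x axis) against TTP-KO (y axis), at 2 h (left) and 4 h (right), with SE bars; the dashed line marks equal change. At 4 h the medians are 0.65 and 0.62, and at 2 h Mettl1 lies at 0.63 in WT and -0.63 in TTP-KO.

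Between genotypes at the same treatment, few differences were found. Under control OVA 2 of the 40 passed the test (1.65% of all tested genes did): Mettl1, higher in TTP-KO, and Max, lower by 0.23 on the log2 scale (SE 0.05, edgeR adjusted p = 0.0102). All 3 TTP-KO libraries lay below all 3 WT libraries for Max. Its call was lost without TTP-KO control replicate 2 (adjusted p = 0.0692). At 2 h none of the 40 passed edgeR's test (2.79% of all tested genes did), with 5 at an unadjusted p under 0.05. At 4 h none passed either (5.22% of all tested genes did), with 4 at an unadjusted p under 0.05. The share of all tested genes at that unadjusted threshold was not counted, so these 5 and 4 cannot be set against the shares by adjusted p. DESeq2 called none at 2 h, where 6 had no adjusted p, and none at 4 h. All 40 differed by less than 0.5 in log2 at 2 h and at 4 h, and 39 of 40 did in control.

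The test of the response itself called none of the 40 in edgeR: 4 had an unadjusted p under 0.05 for the 2 h response, 6 for the 4 h response and 2 for the step from 2 h to 4 h. Over all tested genes this test called 0.0497%, 0.689% and 0.313% by adjusted p, and the like shares by unadjusted p were not counted. DESeq2 also called none, with no adjusted p for 37, 32 and 32 of the 40. At 4 h, 29 genes had risen in both genotypes. Rrp9 and Utp15 passed the test in WT alone and Ncl, Nop10 and Nop14 in TTP-KO alone; of these 5 calls, that of Nop14 was lost in none of the alternative fits. Ddx10, Max, Noc3l, Noc4l, Npm1 and Rrp12 rose in neither.

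Genes with and without an E-box in the window shown above were set side by side. In WT at 4 h, 8 of the 9 with an E-box had risen and 1, Max, had fallen, with a median of 0.91. Of the 25 without it, 19 had risen, with a median of 0.65. In TTP-KO the counts were 8 of 9 and 20 of 25, with medians of 0.61 and 0.64. The order of the medians thus differed between genotypes. Utp20 and Tsr1, with E-boxes after their starts, rose by more than 1 in WT, as did Rrp1b and Nop58, which have none in the window.

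Other lists around Myc and ribosome assembly were counted in the same way. Of 25 other textbook targets of Myc, 13 had risen and 2 had fallen at 4 h in WT, with 12 and 1 in TTP-KO. At 2 h, 6 had risen and 4 had fallen in WT, with 7 and 4 in TTP-KO. Odc1 rose and Cad and Nampt fell at 2 h alone in both genotypes. Of all tested genes in WT, 19.6% rose and 18.4% fell at 4 h, and 17.8% and 17.3% at 2 h. In TTP-KO these shares were 18.3% and 16.7% at 4 h, and 17.8% and 16.6% at 2 h. Ccnd2, a cyclin, rose by 2.03 ± 0.07 in WT at 2 h (edgeR adjusted p = 2.4e-19), Ctps1, which makes CTP, by 1.18 ± 0.22 at 4 h, and Srm, a spermidine synthase, by 1.00 ± 0.10 at 4 h. Among 15 genes of the nuclear exosome and RNA trimming, 7 had risen and 1 had fallen in WT at 4 h (19.6% and 18.4% of all tested genes). In TTP-KO 2 had risen (18.3% of all tested genes), and the difference between these counts was not tested. Exosc3 and Dis3 rose by 0.78 ± 0.10 and 0.72 ± 0.17 in WT, and Exosc10 by 0.52 ± 0.10.

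Of 11 snoRNP biogenesis factors, 3 had risen and 1 had fallen at 4 h in each genotype, a share near that of all tested genes (19.6% and 18.3% rose). The 3 in WT were Snu13, a protein of box C/D particles (0.78 ± 0.14), Tcof1, which binds RNA polymerase I (0.52 ± 0.18), and Nufip1, an assembly factor (0.51 ± 0.15). Of 9 RNAs that host small nucleolar RNAs in their introns, 2 had risen in WT at 4 h (Snhg1 by 0.69 ± 0.13 and Snhg5 by 0.40 ± 0.15), also near the background, and Snhg8 rose by 0.69 ± 0.21 at 2 h. In TTP-KO 3 of the 9 had risen at 4 h.

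RNA polymerase III, which makes transfer RNA and the smallest ribosomal RNA, gave 3 risen and 1 fallen of 20 genes at 4 h in each genotype, near the background. Polr3d rose by 0.97 ± 0.23 and Polr3e by 0.50 ± 0.15 in WT. Maf1, the repressor of this polymerase, changed by -0.88 ± 0.08 in WT at 2 h (edgeR adjusted p = 2.55e-10) and by -0.65 at 4 h. The mTOR pathway drives ribosome production in response to nutrients. Of 12 of its genes, 3 had risen in WT at 4 h, near the background, and 5 had fallen (18.4% of all tested genes fell). Rptor, a scaffold of mTOR complexes, rose by 1.41 ± 0.11 at 4 h. In WT the mTOR inhibitor Sesn1 changed by -1.03 ± 0.11 at 2 h and the inhibitor Ddit4 by -0.80 ± 0.05 at 4 h. In TTP-KO, Ddit4 and Eif4ebp1 had risen at 2 h and fallen at 4 h, and Sesn2 had risen at 2 h alone. At 2 h the list gave 3 risen and 2 fallen in WT (17.8% and 17.3% of all tested genes). In TTP-KO it gave 4 and 2 at 2 h (17.8% and 16.6%) and 3 and 4 at 4 h (18.3% and 16.7%).

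**Figure D4:**
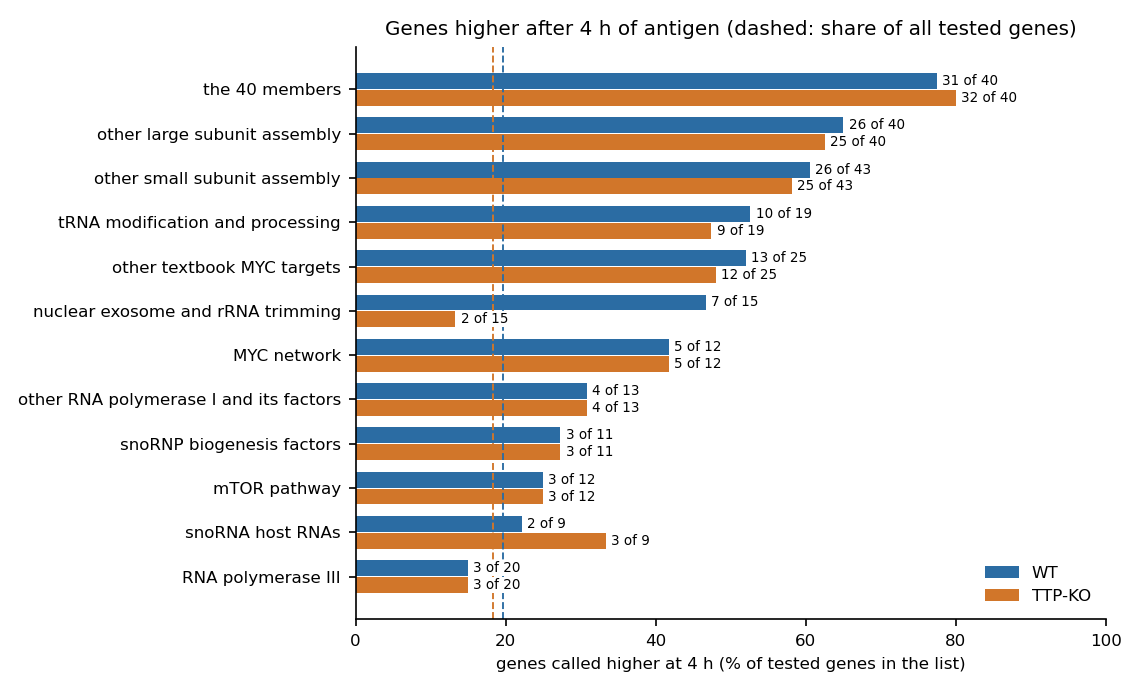
Share of tested genes in each list that rose by 4 h (x axis, percent) in WT and TTP-KO, with the counts beside the bars; dashed lines mark the share of all tested genes in each genotype (19.6% and 18.3%). The 40 genes and the other assembly factors of both subunits stand above the lines, and RNA polymerase III stands below them, as do the exosome genes in TTP-KO.

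Genes of dividing cells did not rise with the ribosome genes. Of 21 such markers, none had risen at either time. In WT 10 had fallen at 2 h and 10 at 4 h (17.3% and 18.4% of all tested genes did), of which 5 were the same genes. In TTP-KO 15 and 11 had fallen (16.6% and 16.7% of all tested genes did), with 10 the same. Their summed level was between 988 and 1045 CPM in WT control, between 842 and 930 CPM at 2 h and between 844 and 891 CPM at 4 h. In TTP-KO the ranges were 1097 to 1158, 904 to 929 and 936 to 966 CPM. At 4 h, 7 of the 10 neutrophil markers had also fallen in each genotype (18.4% of all tested genes fell in WT and 16.7% in TTP-KO). Of the 12 basophil markers, 5 had risen and 7 had fallen at 4 h in each genotype, where 19.6% and 18.3% of all tested genes rose. Of the 6 megakaryocyte and platelet markers, 3 had fallen in WT and 4 in TTP-KO at 4 h. The part of these shifts in the rise of the 40 genes was not tested.

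Whether counting used the strand is not given in any source used, so reads of a gene and of one on the other strand cannot be told apart. Bop1, Dkc1, Gnl3, Nhp2, Noc2l, Nop56, Rrp9, Tsr1 and Wdr12 overlap a tested gene on the opposite strand in the GRCm38 annotation, and their values are uncertain to that extent. Max overlaps Gm47218, a tested gene on the same strand, so its values are uncertain whether or not the strand was used. Mettl1 overlaps Eef1akmt3 on the opposite strand, which was too low to test. Small nucleolar RNA genes lie within Dkc1, Gnl3, Ncl, Nop56, Nop58, Tsr1 and Wdr43.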

How the data were processed

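The deposited table gives, for each gene and library, an expected count as RSEM estimates it, not normalized: values are not all whole, and totals differ between libraries. Per the submitters' processing notes, the tools were STAR 2.7.10a, RSEM 1.3.1, cutadapt 3.5 and R (4.4.0 and 4.4.1), with the build GRCm39. What each did, the annotation and the strand setting are not given in the sources used here. Control columns are headed as unstimulated and were matched to control OVA libraries by genotype and number.

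Counts were rounded and fitted in R 4.3.3 with edgeR 4.0.16 (robust quasi-likelihood, TMM scaling, a mean for each of 6 groups, 12 residual degrees of freedom). filterByExpr kept 14076 of 56413 genes, of which 23517 had no count. The 12 contrasts were adjusted by Benjamini-Hochberg over all tested genes, with a threshold of 0.05. The SE was taken as the log2 fold change over the root of its F. The biological coefficient of variation was 0.0905. By exact permutation, 3 libraries against 3 cannot give a p below 0.1. On simulated counts for WT 4 h against control in 2 random draws (13857 and 13850 genes), 62 and 71 of 100 genes changed 1.5-fold and 83 and 92 of 100 changed 2-fold were recovered, with 6 and 15 others called. The changed genes were drawn only from the better expressed ones. No other gene was changed between these groups, while in the data 19.6% of all tested genes rose and 18.4% fell, so recovery there may differ. No 2 libraries of a group were copies (18 pairs; chi-square over its degrees of freedom, 3.01 to 7.28).

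The members and lists were chosen with earlier results of these data known. Values in every library are given for Myc, Max, Polr1a, Polr1b and, in each other role, for the genes with the highest and the lowest WT 2 h change. Members past the threshold between genotypes are named, with up to 3 genes a companion list, those with the largest change past the threshold in WT at 2 h or 4 h. Some other companion genes are named whose calls differed between times or genotypes. Alternatives were RLE scaling, library totals alone, the most abundant gene left out, no filter, DESeq2 1.42.0, only the groups compared, a replicate block, and leaving out each library. Promoter sequences are from RefSeq, and gene overlaps from a GRCm38 annotation.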

Additional observations from a re-analysis of the deposited data

Results flagged for a closer look

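Mettl1 was singled out because its 2 h responses pointed in opposite directions: all 3 WT libraries at 2 h lay above all 3 WT controls, and all 3 TTP-KO libraries at 2 h lay below all 3 TTP-KO controls. The difference between the 2 responses was -1.26 on the log2 scale (SE 0.308, edgeR adjusted p = 0.213), which did not pass the threshold after adjustment over all tested genes. The groups differed before stimulation, from 3.16 to 4.17 CPM in WT control and from 6.41 to 6.84 CPM in TTP-KO control. At 4 h the ranges overlapped, from 7.51 to 10.0 CPM and from 8.71 to 10.1 CPM.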

How the results depend on the processing

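The 4 h counts moved little: over the 18 fits that left out 1 library each, genes called ranged from 30 to 32 in WT (29 to 31 risen, 1 to 2 fallen) and from 28 to 32 in TTP-KO (none fallen), and from 22 to 28 in either genotype for 4 h against 2 h (risen 21 to 27 in WT and 20 to 27 in TTP-KO, fallen 0 to 1 and 1 to 2). At 2 h the called genes ranged from 5 to 11 in WT (risen 5 to 9, fallen 0 to 3, the 3 without WT control replicate 3) and from 6 to 11 in TTP-KO (risen 6 to 10, fallen 0 to 1). Between genotypes under control OVA they ranged from 0 to 2, with 0 without TTP-KO control replicate 2, and for the other genotype comparisons and the tests of the response they stayed at 0.

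Library totals alone changed most, since TMM factors were 1.09 to 1.13 in control libraries, 0.872 to 0.896 at 2 h and 0.994 to 1.03 at 4 h. At 2 h, 16 genes were then called in WT (1 risen, 15 fallen), and in TTP-KO 2 had risen and 13 had fallen; at 4 h 2 had fallen in WT and 1 in TTP-KO; from 2 h to 4 h none had fallen in either. The median of all tested genes became -0.37 and -0.37 at 2 h, -0.13 and -0.12 at 4 h, and 0.22 and 0.23 from 2 h to 4 h. Of all called genes, 16.6% were then higher at 2 h in WT (50.8% with TMM) and 15.9% in TTP-KO (51.7%), 33.6% at 4 h in WT (51.6%) and 31.5% in TTP-KO (52.3%), and 79.5% and 78.9% from 2 h to 4 h (48.8% and 47.3%). At 2 h the sign turned under this scaling for 15 of the 40 genes in WT and 16 in TTP-KO. Among them, Ncl (-0.29), Rrs1 (-0.32) and Noc2l (-0.28) in WT and Max (-0.25), Ncl (-0.20) and Noc2l (-0.30) in TTP-KO then passed the test as fallen. At 4 h the sign turned for 2 and 1 genes, and from 2 h to 4 h for 2 and 1, among them Max (0.030 in WT and 0.025 in TTP-KO). With no filter the fallen genes were 1 in WT at 2 h, 0 at 4 h, and 0 and 1 from 2 h to 4 h in WT and TTP-KO. DESeq2 and a fit of only the groups compared each gave 0 fallen in TTP-KO at 2 h, and the latter called 1 gene between genotypes in control. The cause was not tested.

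The replicate numbers of the labels did not pair the libraries (45 same-numbered pairs, correlation of deviations from -0.163 to 0.160, 2 of them over 0.1). With the number as a replicate block, 9 genes had risen and 2 had fallen in WT at 2 h, and 5 of 480 gene results changed call. With 3 libraries a group, 62 and 71 of 100 simulated 1.5-fold changes were recovered in 2 draws, so that changes of this size could be missed. Low genes were not among those changed in the simulation, which therefore does not show how many of their changes would be missed.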
